A study of Homo sapiens with 2 samples.

Results

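The distal arms of chromosomes 4 and 16 were examined as peak-bearing regions of the tagged ETV6 binding map in Reh cells. Both arm ends belong to the t(4;12;21;16) rearrangement reported for this line, in which ETV6 and RUNX1 are joined. A peak was counted as a member when its summit lay in chr4:155000000-189999999 or in chr16:84000000-90354753 of build hg19. This gave 3484 of the 315787 listed peaks, or 1.1%, with 2216 on distal 4q and 1268 on distal 16q. The contrast segments were the stretches just proximal to them on the same arms, from 100 to 155 Mb on 4q with 3680 peaks and from 50 to 84 Mb on 16q with 5099 peaks.

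Reh is a cell line from a pre-B acute lymphoblastic leukaemia with the t(12;21) fusion. Cells were transduced with a pCCL vector for HA-tagged ETV6 and kept in culture for 2 weeks, and chromatin was pulled down with anti-HA beads. Cells given the pCCL vector for untagged ETV6 went through the same pulldown as the background group. Both groups therefore carried an ETV6 vector beside the rearranged chromosomes of the line. Each group was given 200 ng of virus with polybrene at 8 ug/mL, a medium change at 24 h and 2 weeks of culture. The submitters' design text mentions triplicates, but the titles name 1 pool per group, and 1 peak list, that of the tagged pool, was analysed. No spread between replicates could therefore be given, and neither groups nor segments were tested against each other.

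ETV6 is an ETS-family transcription factor that binds DNA through a conserved ETS domain, recognises a core GGAA element and acts mainly as a repressor. In ETV6-RUNX1 leukaemia a translocation fuses the amino-terminal part of ETV6 to RUNX1, and the other ETV6 allele is often lost. A translocation moves chromosome arms to new neighbours, while reads are still placed on the reference chromosomes. A change in the number of copies of a segment can appear as a step in read density at its end, whereas a balanced exchange need not give one. Distal 4q is known as a gene-poor arm, with IRF2, an interferon regulatory factor, in band 4q35. Distal 16q is gene-dense and holds IRF8, a regulator of B-cell and myeloid development, and CBFA2T3, a corepressor of the ETO family, in band 16q24. Where these genes lie relative to single peaks was not checked, since the annotation at hand is of another build than the peaks.

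The list reached down to weak peaks, which bears on every density given here. The lowest summit pileup, the number of reads stacked at the summit, was 12 reads, and the median was 14. At the shared background of 4.29 reads, which 95.8% of all peaks had, 1 read changed the fold enrichment by 0.189. A raised background means a recovered local background above that shared level. Intervals in brackets are 95% intervals, exact Poisson or conditional binomial for densities and their ratios and exact Clopper-Pearson for shares. They cover counting error over peaks only, because peaks and windows are not replicates.

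Distal 4q was sparse in peaks and little different from the arm before it. It had 63.3 peaks per Mb (60.7 to 66.0), against 66.9 (64.8 to 69.1) in the contrast segment of 4q. The ratio of these densities was 0.946 (0.897 to 0.998). Windows of 500 kb held 31.7 ± 17.1 peaks in distal 4q (SD, n = 70 windows) and 33.5 ± 17.3 in the contrast segment (SD, n = 110 windows), so the segments differed by far less than the windows within each. Both lay below the rest of the autosomes, where the density was 113.9 peaks per Mb. Distal 4q reached 0.556 times that density (0.533 to 0.580) and its contrast segment 0.588 times (0.569 to 0.607). The length of the autosomes was counted from the first to the last peak of each, so long stretches without peaks are included. No full window of the 4 segments was empty. Without such stretches the autosomal density would be higher and these ratios lower, which the intervals do not cover. The ratios were not recomputed. Against the first 100 Mb of chromosome 4, with 88.6 peaks per Mb, the ratio of distal 4q was 0.715 (0.682 to 0.749). The low density was thus shared by the distal arm and its contrast, and somewhat less by the remainder of the chromosome.

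Distal 16q was dense and even. It had 199.5 peaks per Mb (188.7 to 210.8), against 149.97 (145.9 to 154.1) in its contrast segment, a ratio of 1.33 (1.25 to 1.42). Its windows held 102.6 ± 18.3 peaks (SD, n = 12 full windows), with a lowest window of 74, a median of 100.5 and a highest of 137. The contrast windows held 75.0 ± 53.0 (SD, n = 68), with a lowest of 12, a median of 66.5 and a highest of 324. The groups of windows overlapped: 27 of the 68 contrast windows had at least as many peaks as the lowest distal window, and 4 had more than the highest. The difference in means was larger than the SD of the distal windows and smaller than the SD of the contrast windows. Distal 16q had 1.75 times (1.66 to 1.85) the density of the autosomes outside the 4 segments, whose length includes stretches without peaks. Without those stretches this ratio would be lower. It had 1.36 times (1.28 to 1.45) the density of the first 35 Mb of chromosome 16. It was 3.15 times (2.94 to 3.38) as dense as distal 4q, and the contrast segments of the chromosomes differed in the same direction, by 2.24 times (2.15 to 2.34).

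**Figure D1:**
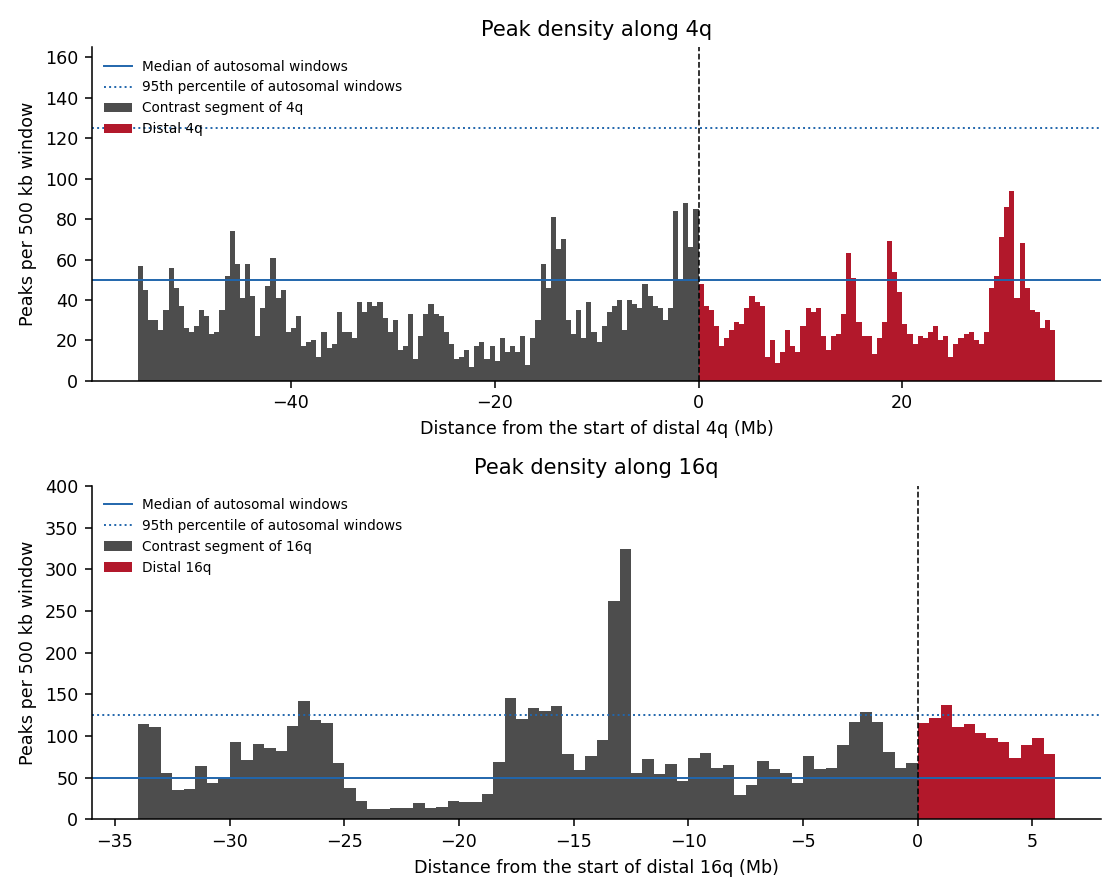
Peaks per 500 kb window along 4q (top) and 16q (bottom), against the distance in Mb from the start of the distal segment (dashed line), with contrast windows in grey and distal windows in red. The solid line is the median of autosomal windows, 50 peaks, and the dotted line their 95th percentile, 125 peaks. Distal 4q stays mostly below the median with a crest about 30 Mb in, and distal 16q stays above it throughout.

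Set against all autosomal windows, the arms lay on opposite sides of the median. Over 5383 autosomal windows with at least 1 peak, the median was 50 peaks and the range from the 5th to the 95th percentile was 14 to 125. In distal 4q 61 of 70 windows were below that median, and in distal 16q 0 of 12 were. Windows with at least 1.5 times the median, 75 peaks, made up 28.4% of autosomal windows. They were 2 of 70 in distal 4q (2.86%), 4 of 110 in its contrast segment (3.64%), 11 of 12 in distal 16q (91.7%) and 27 of 68 in its contrast segment (39.7%). Windows at or under the median divided by 1.5 made up 32% of autosomal windows. They were 45 of 70 in distal 4q (64.3%), 61 of 110 in its contrast segment (55.5%), 0 of 12 in distal 16q and 13 of 68 in its contrast segment (19.1%). Distal 4q and its contrast segment therefore had many sparse windows alike, while distal 16q lacked the sparse windows that its contrast segment held.

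**Figure D2:**
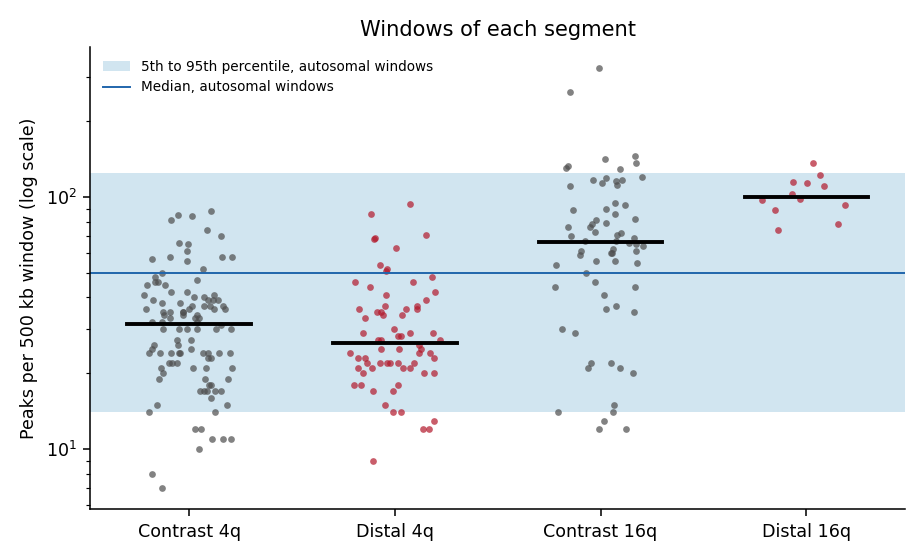
Peaks in each full 500 kb window (points, log scale) of the 4 segments, with the segment median as a black bar and the middle range of autosomal windows, 14 to 125 peaks, shaded. The distal 16q windows sit between 74 and 137, and the distal 4q windows between 9 and 94.

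The number of protein-coding genes was compared by chromosome only, since genes could not be placed within the arms. RefSeq lists 770 on chromosome 4 and 854 on chromosome 16 in assembly GRCh38.p14. Peaks per protein-coding gene were 19.7 on chromosome 4 and 14.2 on chromosome 16, around a median over the 22 autosomes of 17.4. The order of the chromosomes was thus opposite to that of their peak densities per Mb. The part of gene number in the density of the arms was not tested.

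At the start of distal 4q the density fell. The 2.5 Mb before 155 Mb held 373 peaks and the 2.5 Mb after it 164, a ratio of 0.440 (0.364 to 0.530). A change at least this large, in either direction, was seen at 10.9% of the 4927 autosomal boundaries that could be compared. The fall came after a crest at the end of the contrast segment. The windows from 152.5 to 155 Mb held 84, 50, 88, 66 and 85 peaks, while the 5 windows before them held 42, 37, 36, 30 and 36. Beyond 155 Mb the counts were 48, 37, 35, 27 and 17. The density therefore returned, over 2.5 Mb, to a level near or below that before the crest. The largest fall inside distal 4q lay at 156 Mb, from 324 to 125 peaks per 2.5 Mb, a ratio of 0.386 (0.311 to 0.476). A change as large was seen at 6.47% of autosomal boundaries. The fall was thus somewhat larger there than at 155 Mb, with overlapping flanks and intervals. With the crest in the comparison, distal 4q had 0.705 times (0.652 to 0.763) the density of the 10 Mb directly before it.

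Further along distal 4q the density varied in 3 crests, runs of at least 2 windows with over 33.3 peaks, the autosomal median divided by 1.5, that held a window above the median. The largest rise was at 183.5 Mb, where 109 peaks in the 2.5 Mb before were followed by 349 in the 2.5 Mb after, a ratio of 3.20 (2.58 to 4.01). As large a change was seen at 2.64% of autosomal boundaries. The place of the largest rise depended on the window: with windows of 250 kb it was at 173.25 Mb, just before the crest at 173.5 Mb, with a ratio of 3.13. The contrast segment had a rise of 3.41 (2.66 to 4.42) at 139 Mb, so a change of this size was not limited to the distal arm. From 183.5 to 188.5 Mb 10 windows held 34 to 94 peaks each, 573 in all. This crest made up 14.3% of the length of distal 4q and 25.9% of its peaks, with 114.6 peaks per Mb. The 28.5 Mb before the crest had 54.8 peaks per Mb and the 1.5 Mb after it 54.0. Smaller crests lay at 169.5 to 170.5 Mb, with 114 peaks, and at 173.5 to 175 Mb, with 167 peaks. The limits of these crests were chosen from the windows themselves, so their densities are descriptions.

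No step of that size was found at the boundaries that could be compared on distal 16q. At 84 Mb 456 peaks in the 2.5 Mb before were followed by 599 in the 2.5 Mb after, a ratio of 1.31 (1.16 to 1.49), and 54.8% of autosomal boundaries changed at least as much. Inside distal 16q 7 boundaries, from 84.5 to 87.5 Mb, had flanks that stayed within the analysed segments. Their ratios ran from 0.763 at 86.5 Mb to 1.33 at 84.5 Mb. Boundaries beyond 87.5 Mb lacked full flanks, so this comparison says nothing about a step there. The breakpoints of the rearrangement were not mapped here. A step of at least 1.5-fold in either direction was seen at 39.3% of autosomal boundaries. It was seen at 0 of these 7 boundaries, 34 of 65 in distal 4q (52.3%), 35 of 105 in the contrast segment of 4q (33.3%) and 30 of 63 in that of 16q (47.6%). The count of 0 depended on the setting: the largest step inside distal 16q was 1.78 with windows of 250 kb, at 84.25 Mb, and 1.74 with q of at most 0.01, at 84.5 Mb. The windows of distal 16q, from 84 Mb onwards, held 115, 122, 137, 111, 114, 103, 98, 93, 74, 89, 97 and 78 peaks. The counts were thus highest in the first 2.5 Mb and lower beyond. The last, incomplete window held 37 peaks, or 104.3 per Mb, and the last 2 Mb of the arm had 164.5 per Mb.

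A single best change point was sought in the same windows. Along the contrast and distal windows of 4q it lay at 183.5 Mb, 28.5 Mb inside the distal segment, with 62.8 peaks per Mb before and 100.6 after. Along 16q it lay at 66 Mb, in the contrast segment and 18 Mb before its end, with 113.1 peaks per Mb before and 188.3 after. Within distal 16q alone it lay at 86.5 Mb, with 239.6 per Mb before and 180.6 after. With 12 windows and at least 5 kept on each side, 86.5 Mb was the first position allowed. The place was therefore largely set by the search. Over contrast and distal windows together, the best change point of neither arm fell at the start of the distal segment.

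The contrast segment of 16q held both a sparse stretch and a dense block. From 59.5 to 65.5 Mb there were 36.0 peaks per Mb. The density fell into this stretch from 481 to 73 peaks per 2.5 Mb, a ratio of 0.152 (0.117 to 0.194), and rose out of it from 109 to 598, a ratio of 5.49 (4.47 to 6.79). Both steps were larger than any at the boundaries compared inside distal 4q or distal 16q in the same windows. The windows from 70.5 to 71.5 Mb held 262 and 324 peaks, and 30.2% (26.5 to 34.1) of the peaks there had a raised background. Without that 1 Mb the contrast segment had 136.8 peaks per Mb, and distal 16q was 1.46 times (1.37 to 1.55) as dense. The block was singled out after its windows were seen.

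The joined arm of chromosome 21 was far denser than either distal arm. Distal 21q, from 37 Mb to its last peak, had 907.0 peaks per Mb, which was 14.3 times (13.7 to 15.01) the density of distal 4q and 4.55 times (4.29 to 4.82) that of distal 16q. At 36 Mb of chromosome 21, 479 peaks were followed by 2020, a rise of 4.22 (3.82 to 4.67). That rise was smaller than the one at 65.5 Mb in the contrast segment of 16q. The distal 16q density was in the upper part of what chromosome ends showed. In the 6.35 Mb before the last peak of each autosome, chromosome 16 had 200.6 peaks per Mb and ranked 6th of 22. Chromosomes 21, 17, 9, 8 and 22 were above it, and the median of the ends was 164.4.

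Median peak width was slightly below that of the whole list on 4q and slightly above it on 16q, in distal and contrast segments alike. The median was 92 bp (90 to 94) in distal 4q and 94 bp (92 to 96) in its contrast segment, and 103 bp (100 to 107) in distal 16q and 102 bp (101 to 104) in its contrast segment. These medians carry binomial order-statistic intervals. Over all listed peaks the median was 99 bp. In distal 4q 5% of peaks were wider than 183.25 bp, and in distal 16q 5% were wider than 213.7 bp. Window medians ranged from 68 to 117 bp in distal 4q and from 96 to 110 bp in distal 16q. The 3 densest windows of distal 4q, at 185.5, 185 and 184.5 Mb, held 94, 86 and 71 peaks with median widths of 109, 106.5 and 93 bp. Its 3 sparsest, at 162.5, 161.5 and 179.5 Mb, held 9, 12 and 12 peaks with median widths of 117, 75 and 93 bp. Across the 70 windows the rank correlation (Spearman's rho) of peak number with median width was 0.37, and with mean pileup 0.44. Across the 12 windows of distal 16q they were 0.20 and -0.28. All windows come from 1 library, and sparse windows give uncertain medians, so these are descriptions.

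Width grew with height in all 4 segments. At 12 to 13 reads the medians were 72 bp in distal 4q, 73 bp in its contrast segment, 74 bp in distal 16q and 74 bp in its contrast segment. At 14 to 15 reads they were 98 bp (96 to 101), 100 bp (97 to 102), 107 bp (104 to 112) and 104 bp (102 to 106) in that order. At 16 to 19 reads they were 139 bp (134 to 145), 138 bp (135 to 141), 150 bp (145 to 158) and 145 bp (143 to 148). In the remaining autosomes the medians of these classes, from low to high, were 74 bp, 103 bp and 144 bp. The medians were thus higher on 16q than on 4q in these classes, and the intervals of the distal arms were apart at 14 to 15 reads and met at 16 to 19. At 20 to 24 reads the contrast segment of 16q stood apart with 259.5 bp (231 to 305, n = 158), against 181 bp (161 to 198, n = 23) in distal 16q and 172 bp (149 to 198, n = 9) in distal 4q. The 70.5 to 71.5 Mb block, which holds 123 of the 217 peaks of at least 20 reads in that contrast segment, lies in this class too, and its part in the width was not tested.

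**Figure D3:**
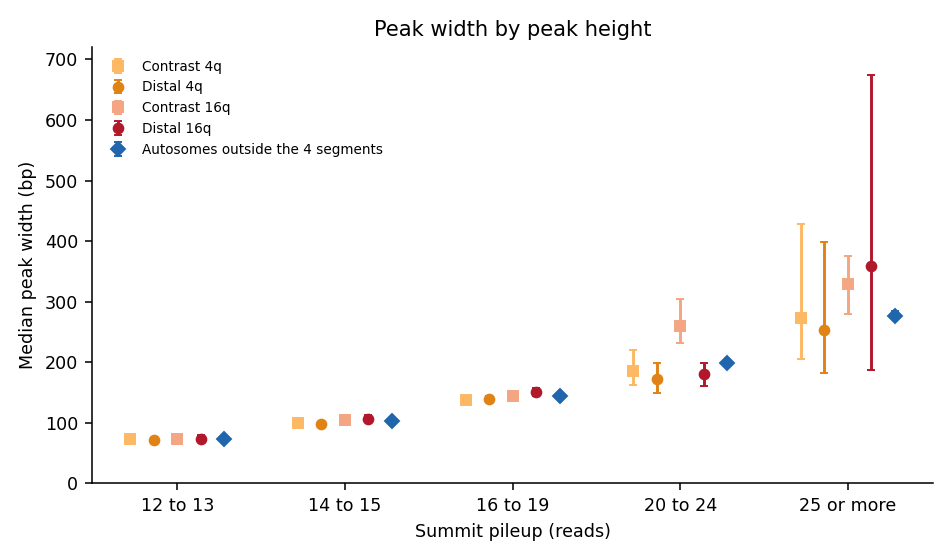
Median peak width in bp by class of summit pileup in reads, for the 4 segments and the remaining autosomes, with 95% order-statistic intervals as bars. The medians lie close together at 12 to 13 reads, those of 16q lie above those of 4q at 14 to 19 reads, and the contrast segment of 16q is wider at 20 to 24 reads, at 259.5 bp.

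Heights were low in distal 4q and ordinary in distal 16q. The median fold enrichment was 2.84 in all 4 segments, which is the fold of a peak of 14 reads at the shared background. Window medians of fold ran from 2.65 to 3.03 in distal 4q and were 2.84 in every full window of distal 16q. Of all listed peaks, 2.66% reached 20 reads. The share was 0.767% (0.448 to 1.23, 17 of 2216) in distal 4q and 1.25% (0.917 to 1.66, 46 of 3680) in its contrast segment. It was 2.29% (1.54 to 3.27, 29 of 1268) in distal 16q and 4.26% (3.72 to 4.85, 217 of 5099) in its contrast segment, which fell to 2.08% (1.69 to 2.54) without the 70.5 to 71.5 Mb block. The interval of distal 4q thus lay below the share over all peaks, and that of distal 16q included it. In distal 4q 57 of 70 windows had no peak of 20 reads, against 77 of 110 in its contrast segment. In distal 16q 3 of 12 had none, against 29 of 68 in its contrast segment. These counts also depend on the number of peaks per window, and the share over autosomal windows was not computed.

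Significance as the authors' peak caller scored it is not a separate measure of height. At the shared background a peak of 15 reads had a −log10 q of 1.94 and one of 16 reads 2.32. A q of at most 0.01 was thus nearly the same cut as 16 reads, with 359 and 364 peaks in distal 4q and 268 and 270 in distal 16q. The same order of segments therefore adds no support. A q of at most 0.01 was reached by 20.7% of all peaks, by 16.2% (14.7 to 17.8) in distal 4q and 17.6% (16.4 to 18.9) in its contrast segment. The shares were 21.1% (18.9 to 23.5) in distal 16q and 23.4% (22.2 to 24.5) in its contrast segment. The lower share in distal 4q was thus shared with the segment before it.

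The density ratio between distal and contrast segments was read separately by height. On 4q it was 0.974 (0.895 to 1.06) at 12 to 13 reads, 0.951 (0.877 to 1.03) at 14 to 15, 0.897 (0.784 to 1.02) at 16 to 19 and 0.471 (0.197 to 1.02, 9 against 30 peaks) at 20 to 24. At 25 or more reads it was 0.786 (0.291 to 1.95, 8 against 16 peaks). On 16q it was 1.34 (1.21 to 1.49) at 12 to 13 reads, 1.41 (1.28 to 1.55) at 14 to 15 and 1.27 (1.10 to 1.46) at 16 to 19. At 20 to 24 reads it was 0.779 (0.480 to 1.21) and at 25 or more 0.544 (0.192 to 1.26). The turn below 1 on 16q depended on the dense block of its contrast segment. Without that block the ratio was 1.56 (1.34 to 1.80) at 16 to 19 reads, 1.93 (1.14 to 3.15) at 20 to 24 and 0.974 (0.333 to 2.36) at 25 or more. At 25 or more reads neither arm could be told from its contrast segment at these numbers.

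**Figure D4:**
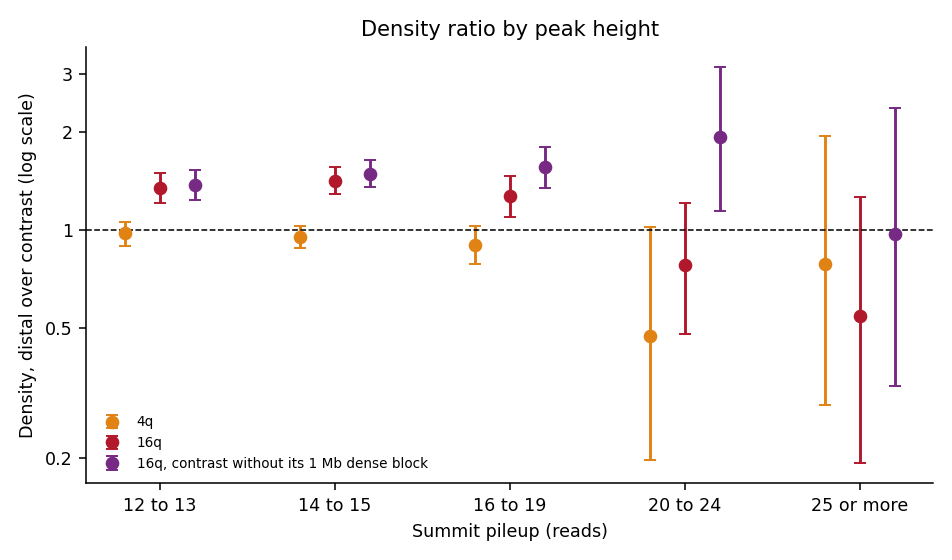
Ratio of peak density, distal over contrast segment (log scale), by class of summit pileup in reads, with exact conditional 95% intervals as bars. The 16q ratio is above 1 up to 19 reads, 1.27 to 1.41, and at 20 to 24 reads it is 0.779 with the dense block kept and 1.93 without it.

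Both arms had a lower share of peaks over a raised background than the whole list. Over all listed peaks 4.19% had one, and by autosome the share ran from 2.84% on chromosome 7 to 16.2% on chromosome 21. The share was 1.94% (1.41 to 2.60, 43 of 2216) in distal 4q and 2.55% (2.07 to 3.12) in its contrast segment. It was 2.60% (1.80 to 3.64, 33 of 1268) in distal 16q and 6.16% (5.51 to 6.85) in its contrast segment, which fell to 3.04% (2.55 to 3.58) without the dense block. At exactly 15 reads the share was 1.11% (0.304 to 2.82, 4 of 360) in distal 4q and 3.69% (1.60 to 7.13, 8 of 217) in distal 16q, against 4.08% over all peaks. At this equal height the interval of distal 16q included the share over all peaks, and that of distal 4q lay below it. The highest background in either arm was 6.11 reads, at chr4:174520139-174520251 and at chr16:85556580-85556842. No member therefore sat on the very high backgrounds found elsewhere in the list.

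Summits lay closer together on 16q than on 4q. The median distance between neighbouring summits was 9.38 kb in distal 4q and 8.67 kb in its contrast segment, and 3.21 kb in distal 16q and 3.38 kb in its contrast segment. Neighbours closer than 1 kb made up 7.95% of distances in distal 4q and 8.34% in its contrast segment. They made up 19.3% in distal 16q and 21.7% in its contrast segment. The contrast share includes the dense block of that segment and was not computed without it, so no order is drawn from it. The longest stretch without a summit was 185.5 kb in distal 4q, from 164808994 to 164994541, and 309.5 kb in its contrast segment. In distal 16q it was 108.4 kb, from 90183646 to 90292046, just before the last peak of the chromosome. Stretches over 100 kb numbered 21 in the 35 Mb of distal 4q and 24 in the 55 Mb of its contrast segment. They numbered 1 in the 6.35 Mb of distal 16q and 9 in the 34 Mb of its contrast segment.

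Strong peaks were few in distal 4q, and several lay in groups. Of all listed peaks, 0.889% had 25 reads or more at the summit, and 8 of the 2216 in distal 4q did (0.361%, 0.156 to 0.710), in 7 of its windows. The tallest was at chr4:173943132-173943513, 382 bp wide, with a pileup of 66 reads and a fold enrichment of 12.7. It lay in the crest at 173.5 to 175 Mb, which also held chr4:174091214-174091395 with 28 reads and chr4:174820670-174820926 with 45 reads and a fold of 8.70. The next by fold was chr4:185305476-185305874, 399 bp wide, with 54 reads and a fold of 10.4. The remaining members of the 5 strongest, by fold and by q alike, were chr4:160477182-160477430 with 38 reads and a fold of 7.38 and chr4:164366631-164366843 with 36 reads and a fold of 6.999. That last peak stood in a window of 17 peaks, so a tall peak did not need a dense surrounding. The widest peak of the arm, chr4:155857713-155858154 at 442 bp, was weak, with 16 reads.

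Several tall peaks of distal 4q lay in its last crest. Of the 17 peaks of at least 20 reads, 7 lay between 183.5 and 188.5 Mb, a crest with 25.9% of all peaks of the arm. Of the peaks in this crest 1.22% (0.493 to 2.50) reached 20 reads, against 0.767% in the arm and 2.66% over all listed peaks. Among the 7 tall peaks of the crest, 4 lay within 226.2 kb, from 185105022 to 185331254. They had pileups of 20, 31, 54 and 20 reads, and all had the shared background. The neighbouring window at 185.5 Mb, the densest of the arm with 94 peaks, had 0 peaks of 20 reads. Over the arm, 4 of the 9 windows at or above the autosomal median held a peak of 20 reads, 7 such peaks in all. Of the 61 windows below it 9 did, with 10 such peaks. Denser windows hold more peaks of any height, and these counts were not set against peak number or against autosomal windows.

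On distal 16q most of the few peaks of at least 25 reads lay near the end of the arm. The 29 peaks of at least 20 reads were spread more widely, with 8 in the first 2 Mb and 12 in the last 2 Mb. Of the 1268 peaks, 6 reached 25 reads (0.473%, 0.174 to 1.03), and 5 of these lay in the last 1.5 Mb. The tallest was chr16:89682983-89683452, 470 bp wide, with 162 reads and a fold of 30.8, which ranked 11th by fold in the whole list. Its window held 78 peaks, the second lowest number of the full windows in the arm. The second by fold was chr16:89034455-89035014, 560 bp wide, with 40 reads and a fold of 7.76. Near it lay chr16:89045006-89045679, the widest of the arm at 674 bp, with 31 reads and a fold of 6.05. With chr16:88988076-88988262, of 25 reads, they formed a group of 3 within 57.6 kb. The others were chr16:89996346-89996593 with 36 reads and a fold of 6.999 and chr16:87814343-87814549 with 27 reads and a fold of 5.30. The densest part of the arm, from 84 to 86 Mb, had 242.5 peaks per Mb and 0 peaks of 25 reads. The last 2 Mb had fewer peaks, 164.5 per Mb, and 5 of 25 reads.

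Strong peaks of the contrast segments give the range around these values. The highest in the contrast segment of 4q were chr4:109233140-109233708 with a fold of 19.9 and chr4:140750004-140750434 with 17.0, both above the tallest of distal 4q. Those in the contrast segment of 16q were chr16:81162683-81163121 with 16.1 and chr16:67537404-67537807 with 15.3, both below the tallest of distal 16q. Peaks of at least 25 reads numbered 0.229 per Mb (0.0987 to 0.450) in distal 4q and 0.291 (0.166 to 0.472) in its contrast segment. On 16q they numbered 0.944 per Mb (0.346 to 2.06) in the distal segment and 1.74 (1.32 to 2.24) in its contrast segment, or 0.970 without the dense block.

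**Figure D5:**
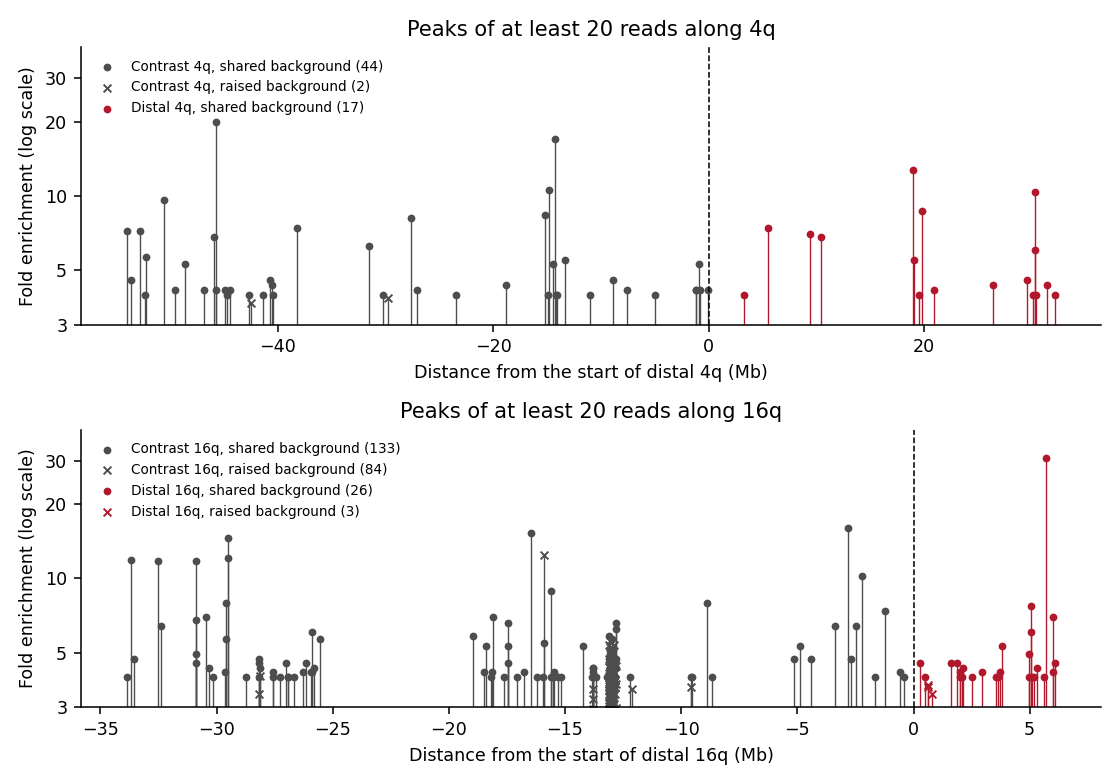
Fold enrichment (log scale) of each peak of at least 20 reads along 4q (top) and 16q (bottom), against the distance in Mb from the start of the distal segment (dashed line). Circles have the shared background and crosses a raised one. Distal 4q has 17 such peaks, the tallest at 12.7, and distal 16q has 29, the tallest at 30.8.

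The limits of the segments cut through ordinary peaks on most sides. The last peak before distal 4q, chr4:154988925-154989112, and the first inside, chr4:155004116-155004216, both had 15 reads. The last inside, chr4:189995064-189995175, had 16 reads, and the next, chr4:190034744-190034860, had 18. That next peak opened a different stretch: from 190 Mb to the last peak of chromosome 4 there were 428 peaks, 414.1 per Mb, of which 65.4% reached 20 reads and 89.5% had a raised background. On 16q the last peak before the distal segment, chr16:83979805-83979930, had 13 reads and the first inside, chr16:84006790-84006873, had 17. The last peak of the chromosome, chr16:90292019-90292100, had 13.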

How the data were processed

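Chromatin pulled down with anti-HA beads was sequenced for 2 groups of transduced Reh cells, each 1 pooled library by its title, and the peak list of the tagged pool was analysed. The submitters' processing notes name the build hg19, MACS2 2.1.1.20160309 and Bowtie2 2.2.3. What each did, with which settings, and whether the untagged pool served as control is not given in the sources used here. The authors deposited a fold column, taken as the ratio of reads at the summit to the local background, and −log10 columns, taken as those of the p-value and q-value of the summit. The largest q was 0.0981. The deposited score repeats −log10 q, times 10 and cut to a whole number, in 100% of peaks, and was left aside. Start, end and summit fill the remaining deposited columns.

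Pileup and background were solved from fold = (pileup + 1)/(background + 1) and the Poisson upper tail for p. All peaks but 1 gave a whole pileup, within 0.05 reads. A background within 0.005 of 4.29 reads was called shared. The solving step and the change-point search were tested on simulated data. Summits were counted in 500 kb windows starting at whole multiples, and empty windows were left out of the autosomal reference. The incomplete window with the last peak of each autosome stayed in that reference and could serve as a flank of a compared autosomal boundary. A step compared the 5 windows after a boundary with the 5 before it, where none of the 10 was empty. For the change points, at least 5 windows were kept on each side.

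Peaks named by position were, in each distal arm, the 5 strongest by q, the 5 strongest by fold and the 2 widest, and in each contrast segment the 2 strongest by fold. Windows were named as the 3 with most and the 3 with fewest peaks of an arm, given here in full for 4q and through the list of all windows for 16q. The definition of the 4q crests, the group at 185 Mb and the 16q block were chosen after their values were seen. So were the peaks of at least 25 reads outside that rule and the 1.5 Mb limit at the end of 16q. The members, limits and windows were chosen with earlier results of these data known. Library read totals were not used, so depth is given as pileup. Alternatives changed the q threshold, merging, background, windows and segment limits. Sequences and genes at the peaks were not analysed here, because the reference at hand is of another build. Software was matplotlib 3.10.9, scipy 1.17.1, pandas 2.3.3 and numpy 2.4.6 under Python 3.11.15.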

Additional observations from a re-analysis of the deposited data

How the results depend on the processing

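Of 74 alternatives over 16 values, 47 left the value within its main interval, 26 moved it outside and 1 reversed a direction. Leaving out windows without any peak could not change a density ratio, because no full window of the 4 segments was empty. The tally counts these cases as unchanged. With q of at most 0.01 the density of distal 4q over its contrast segment was 0.869 and that of distal 16q 1.204. The step at the start of distal 16q was then 1.61, and the largest inside was 5.85 on 4q and 1.74 on 16q. At that threshold 100% of distal 16q windows were of high density, against 32.9% of autosomal windows. Median widths at that threshold were 140 bp on 4q and 155 bp on 16q. Against the 10 Mb directly before it distal 4q had 0.705 times the density. The last 2 Mb of distal 16q had 1.10 times the density of the contrast segment (0.978 to 1.23), an interval that includes 1. Leaving out 70.5 to 71.5 Mb, which was chosen after seeing the data, gave 1.46. In windows of 250 kb the step at the start of distal 16q was 1.78 and the largest inside it 1.78. In windows of 1 Mb the step at the start of distal 4q was 0.547 and the largest inside distal 16q 1.04. That last value is from 85 Mb, the only boundary inside distal 16q with full flanks at this window size. Of the 1 Mb windows of distal 16q 100% were of high density, against 27.8% of autosomal ones. With peaks merged within 1000 bp the largest step inside distal 16q was a fall, 0.796, in place of the rise of 1.33, and median spacing was 10.8 kb on 4q and 4.55 kb on 16q. By construction, the share of peaks reaching 16 and 25 reads was 16.4% and 0.361% on 4q and 21.3% and 0.473% on 16q. Over all listed peaks it was 21.2% and 0.889%. Likewise by construction, the share at q of at most 0.05 and 0.001 was 88.5% and 3.70% on 4q and 89.5% and 7.02% on 16q. Over all listed peaks it was 89.4% and 6.23%. The causes of the other shifts were not tested. No paired analysis was possible because each group is 1 pooled library and 1 peak list was analysed, and for the same reason no replicate could be left out. Peaks below 12 reads were not listed, which limits what the densities can show.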
